A study of Mus musculus with 4 samples.

Results

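Zeb1 occupancy was described at 10 genes of the LIF and Stat3 pathway, Lif, Lifr, Il6st, Stat3, Socs3, Jak1, Jak2, Gbx2, Pim1 and Myc, among 21000 protein-coding genes of the reference. The genes were chosen by name, and a peak was counted for a gene when the list of 17435 unified Zeb1 peaks gave that gene symbol for it. The list came from chromatin immunoprecipitation followed by sequencing (ChIP-seq), in which DNA bound by a protein is recovered with an antibody and compared with input, the same kind of chromatin sequenced without it. The cells were D3, an established line of mouse embryonic stem cells (mESC), at passage 5 to 8. They were kept in GS, serum-free N2B27 medium that held LIF at 20 ng per mL together with inhibitors of MEK (PD0325901, 1 μM) and of GSK-3 (CHIR99021, 3 μM). There were 3 Zeb1 ChIP libraries, made with 8 μg of antibody on chromatin fixed in 1% formaldehyde and sheared to about 200 bp, and 1 input library. LIF was present in every library, so the list holds no comparison of cells with and without the cytokine, and expression of the genes was not analysed here.

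LIF is a secreted cytokine of the interleukin 6 family that keeps mESC self-renewing. It binds a receptor made of the Lifr chain and the signalling chain encoded by Il6st, and the receptor-bound kinases Jak1 and Jak2 then phosphorylate Stat3, a transcription factor that enters the nucleus and binds its target genes. Socs3 is a target whose product blocks the receptor, and Gbx2, Pim1 and Myc are genes placed downstream of LIF in mESC. Zeb1 is a zinc finger protein that binds E-box sequences and is best known as a repressor.

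Each peak of the list carries the authors' mean treatment reads, their mean input reads and their mean enrichment, which is the ratio of treatment over input after normalization for mapped reads. It holds no value per library, so no SD or test accompanies a peak, and the sequencing depth of each library is unknown from it. The values are given as means over replicates, of which 3 are labelled. To a relative tolerance of 0.000006, with divisors up to 30 tried, the smallest number that made the mean treatment reads whole was 7 in 30.8% of all peaks, 1 in 28.9%, 2 in 18.9%, 5 in 16.2% and 3 in 3.19%, and these divisors are not explained in the sources used here. The normalized enrichment was 2.07 times the plain ratio of the averaged reads at the median peak, with quartiles of 1.97 and 2.18. Across the list the median peak was 1850 bp long, with 47.4 treatment reads against 16 input reads and an enrichment of 6.5 (quartiles 4.91 and 8.53). A peak is called a promoter peak where its centre lay within 5 kb of the transcription start site (TSS) of the gene, and a distal peak where it lay farther away. Distances are from the TSS to the peak centre, positive downstream, and positions are in mm10 (GRCm38).

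Of the 10 genes, 9 had at least 1 assigned peak and Jak2 had none, beside 53.3% of all protein-coding genes with a peak. A promoter peak was listed for 8 genes, all but Jak1 and Jak2, beside 45.1% of all protein-coding genes. Together the genes had 20 peaks, of which 9 were promoter peaks and 11 were distal. Of all 17435 peaks of the list, 10698 lay within 5 kb of the TSS and 6737 lay beyond it. The 20 peaks were unevenly spread over the genes. Socs3 and Gbx2 had 5 peaks each, a number reached by 0.724% of protein-coding genes, whereas Il6st, Pim1 and Myc had 2 and Lif, Lifr, Stat3 and Jak1 had 1. Enrichment was above the median of the list in 9 of the 20 peaks and below it in 11, so as a group the peaks were not on the high side of the list. By class, the median was 7 in the 9 promoter peaks, beside 6.74 in all promoter peaks of the list. In the 11 distal peaks it was 5.8, beside 6 in all distal peaks. Scaled to length, 6 peaks had more and 14 had fewer treatment reads per kb than the list median of 25.1.

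**Figure D1:**
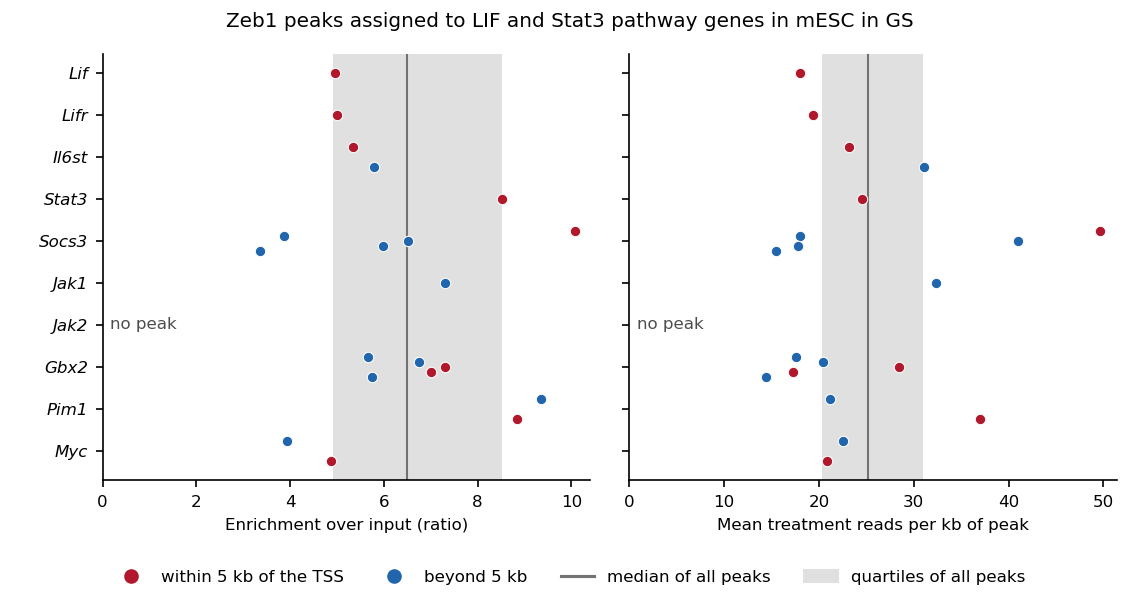
Enrichment over input (left, ratio) and mean treatment reads per kb of peak (right) for the 20 peaks, by gene, with promoter peaks in red and distal peaks in blue; the line and the grey band give the median and quartiles of all 17435 peaks. The promoter peak of Socs3 is the highest on both axes, with an enrichment of 10.1 and 49.7 reads per kb, and Jak2 has no peak.

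The gene of the ligand, Lif, had 1 peak, at chr11:4266201-4268850. It was 2650 bp long, with 47.6 treatment reads against 21.3 input reads and an enrichment of 4.96, a ratio above that of 25.6% of all peaks. Its 18.0 treatment reads per kb exceeded those of 14.0% of peaks, so by either scale the peak was in the lower part of the list. Lif has 2 curated TSSs. The peak covered the downstream TSS, 729 bp from the peak centre, and not the upstream TSS, which was 9957 bp away. All of the peak lay inside the span of the longer transcript. Counted over both curated transcripts, with exons taken before introns, 2023 bp were in introns, 426 bp in the 5´ UTR and 201 bp in coding sequence. Lif was also the gene whose peak held the most matches to the Zeb1 motif, as described with the sequences.

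Both receptor genes had a peak centred on their TSS. Lifr, the chain that binds LIF, had 1 peak at chr15:7128551-7130500, 47 bp upstream of the TSS, with 37.8 treatment reads against 17 input reads and an enrichment of 5. Another curated TSS of Lifr, 11017 bp from the peak centre, was not covered. Il6st, which encodes the chain shared by the receptors of the family, had a peak at chr13:112463151-112465000, 5 bp from the TSS, with 42.9 treatment reads against 16.9 input reads and an enrichment of 5.34. Enrichment at the promoters of Lifr and Il6st was above that of 26.0% and 31.2% of all peaks, which places the receptors beside the ligand. A further Il6st peak lay 54105 bp downstream of the TSS, past the end of the 42791 bp gene, at chr13:112517451-112518900. The list annotated it to a copy of the repeat RMER1C. This distal peak had an enrichment of 5.8 and 31.0 treatment reads per kb, against 23.2 reads per kb at the Il6st promoter.

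Of the 10 genes, the kinases alone had no promoter peak, where 45.1% of all protein-coding genes had one. Jak1 had 1 peak at chr4:101291501-101293900, 27418 bp upstream of the TSS, which the list annotated to a SINE repeat of the B1F class. It had 77.6 treatment reads against 21.1 input reads and an enrichment of 7.3, a ratio above that of 60.9% of all peaks, and its 32.3 treatment reads per kb were above those of 79.0%. Within the 113309 bp of Jak1 and 5 kb on either side no peak was listed for any gene. Jak2, the other kinase, had no assigned peak, and none overlapped its 61293 bp or the 5 kb around them. The nearest peak to the Jak2 TSS was 109972 bp downstream and assigned to Plgrkt, with 31 treatment reads against 14 input reads and an enrichment of 4.3. A gene without a peak is one to which no region was assigned that met the authors' limits, among them 20 treatment reads, 2-fold enrichment and presence in at least 2 of the 3 libraries.

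Stat3, the transcription factor of the pathway, had 1 short peak of 1400 bp at chr11:100938551-100939950, 261 bp from the TSS by the list, with its centre in intron 1. Its enrichment of 8.52 was above that of 74.9% of all peaks, although its 34.4 treatment reads were above those of 22.4%. The input reads were low here as well, at 8.2, or 5.86 per kb, a level above that of 22.4% of peaks. The Stat3 promoter was thus high as a ratio over input and close to the list median in treatment reads per kb, at 24.6.

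Socs3, the feedback inhibitor, had the highest peak of the 10 genes by enrichment and by treatment reads per kb. The promoter peak at chr11:117967301-117970450, 491 bp downstream of the TSS, had 157 treatment reads against 34.6 input reads and an enrichment of 10.1. Treatment reads were above those of 98.7% of all peaks and of 97.8% of the 449 peaks of like length (within 100 bp). Enrichment was above that of 85.6% of all peaks, and 86.2% of all genes with a promoter peak had a lower best value. Of the 3150 bp of the peak, 1084 lay outside the curated transcript, 580 in the 5´ UTR, 678 in coding sequence, 556 in the intron and 252 in the 3´ UTR. The other 4 Socs3 peaks lay in intergenic sequence on the downstream side of the gene, at 6366, 19691, 37816 and 45791 bp. Their enrichment was 3.87, 6.51, 5.99 and 3.35 in that order, all below the promoter peak. Among these distal peaks the one at 19691 bp, at chr11:117948801-117950550, had the most treatment reads per kb, 41.0, a level above that of 94.1% of peaks. Its input was high as well, with 13.0 reads per kb, above 88.3% of peaks. The list annotated this peak to a CpG island, as it did the promoter peaks of Stat3 and Myc. No other curated TSS was nearer to any Socs3 peak than that of Socs3.

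**Figure D2:**
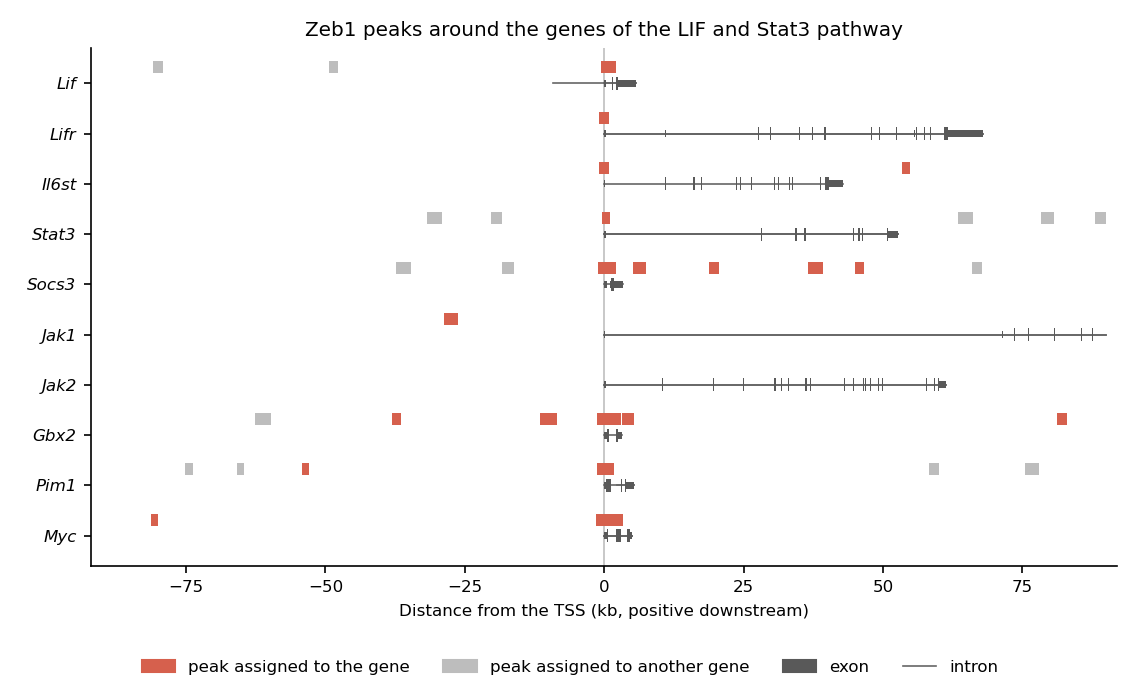
Position of Zeb1 peaks within 90 kb of the TSS of each gene, in kb and positive downstream on the strand of the gene, with peaks assigned to the gene in red, peaks assigned to other genes in grey, and exons as dark boxes. Distal peaks assigned to the gene lie on 1 side at Socs3 and on both sides at Gbx2, and peaks are missing from the bodies of Jak1 and Jak2; Jak1 runs past the right edge.

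Gbx2, a homeobox gene placed downstream of LIF and Stat3, had 5 peaks, on both sides of the gene. The largest was the promoter peak at chr1:89928251-89932550, 4300 bp long and 776 bp from the TSS, with 122 treatment reads against 33.1 input reads and an enrichment of 7.3. It reached 1374 bp outside the gene and covered all but the end of its 3215 bp. A neighbouring promoter peak, 4251 bp downstream of the TSS, lay across a gap of 250 bp from it, with 37 treatment reads against 10 input reads and an enrichment of 7. A distal peak at chr1:89939601-89942750, 9999 bp upstream, had an enrichment of 6.74. The remaining pair lay inside other genes, 37324 bp upstream in a coding exon of Asb18 and 82176 bp downstream in intron 16 of Agap1. These had 28.1 and 26 treatment reads, with enrichments of 5.67 and 5.75, the lowest of the 5 Gbx2 peaks. Across the 5 peaks the enrichment spanned 5.67 to 7.3 and the treatment reads per kb 14.4 to 28.4, highest at the promoter on both scales.

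Pim1, which encodes a serine/threonine kinase, had a promoter peak at chr17:29489451-29492600 with 117 treatment reads against 26.1 input reads and an enrichment of 8.84. The list placed it 20 bp upstream of the TSS, and the upstream of its 2 curated RefSeq TSSs put the centre 240 bp downstream. The other TSS, 2060 bp from the centre, was not covered by the peak. With 37.0 treatment reads per kb it followed Socs3 among the promoter peaks, above 89.5% of all peaks. A small distal peak of 1250 bp lay 53820 bp upstream, at chr17:29436601-29437850, and its enrichment of 9.35 rested on 26.5 treatment and 5.5 input reads. Its input, 4.4 reads per kb, was above that of 8.88% of peaks, so a high ratio went with a low input here. The TSS of the lncRNA Gm26885, at 30713 bp, was nearer to this peak than that of Pim1.

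Myc, a transcription factor that drives growth and proliferation, showed the opposite combination to Stat3. Its promoter peak was the longest of the 20, 4800 bp at chr15:61983951-61988750, and had 99.9 treatment reads and 37.8 input reads. The enrichment was 4.87, the lowest among the best promoter peaks of the 8 genes and above that of 24.3% of all peaks. Per kb it had 20.8 treatment reads, above 27.8% of peaks, and among the 91 peaks of like length its treatment reads were above 57.1%. The many reads of this peak were thus spread over a long region. A distal Myc peak lay 80641 bp upstream, at chr15:61904151-61905250, and was annotated by the list to a LINE repeat of the L1Md_F2 class. It had 24.8 treatment reads against 14 input reads and an enrichment of 3.94. Input was high in this peak, with 12.7 reads per kb, a level above that of 87.2% of peaks.

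The 11 distal peaks of these genes were mostly those of Socs3 and Gbx2, which had 7 of them. Enrichment was above the median of all distal peaks, 6, in 4 of the 11 and below it in 7. The 4 were the distal peak of Pim1, that of Jak1, the Gbx2 peak 9999 bp upstream and the Socs3 peak at 19691 bp. In treatment reads per kb the same Socs3 peak, with 41.0, and the Jak1 peak, with 32.3, were the highest of the distal peaks, and that of Gbx2 in Agap1 was the lowest, with 14.4.

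Taking the highest promoter peak of each of the 8 genes, enrichment ranged from 4.87 at Myc to 10.1 at Socs3, with a median of 6.32. Over the 9468 protein-coding genes with a promoter peak the median was 6.84, with quartiles of 5.44 and 8.66. With peaks within 1 kb of the TSS alone, which leaves 7 genes without Myc, the order turned, with a median of 7.3 beside 6.77 over all genes. Socs3, Pim1, Stat3 and Gbx2 were above the median of all genes, and Il6st, Lifr, Lif and Myc were below it. Among these 8 genes, those of the ligand and receptors were thus in the lower group and those of the transcription factor and the inhibitor in the upper, while the targets were in both. This order is a description of single mean values, and the spread between libraries that would say which neighbours differ was not analysed here. Related genes, described below, did not all keep to it. With a promoter peak, 3 of 3 receptors, 0 of 2 transcription factors, 4 of 9 inhibitors, 0 of 3 ligands and 9 of 10 targets were above the median of all genes. Longer peaks had more reads across the list, from a median of 33.5 treatment reads in peaks of at most 1500 bp to 74 in those of at least 2400 bp. Median enrichment rose as well, from 5.57 to 7.14, and 9 of the 20 peaks, or 45%, were in this longest class, beside 24.7% of all peaks.

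**Figure D3:**
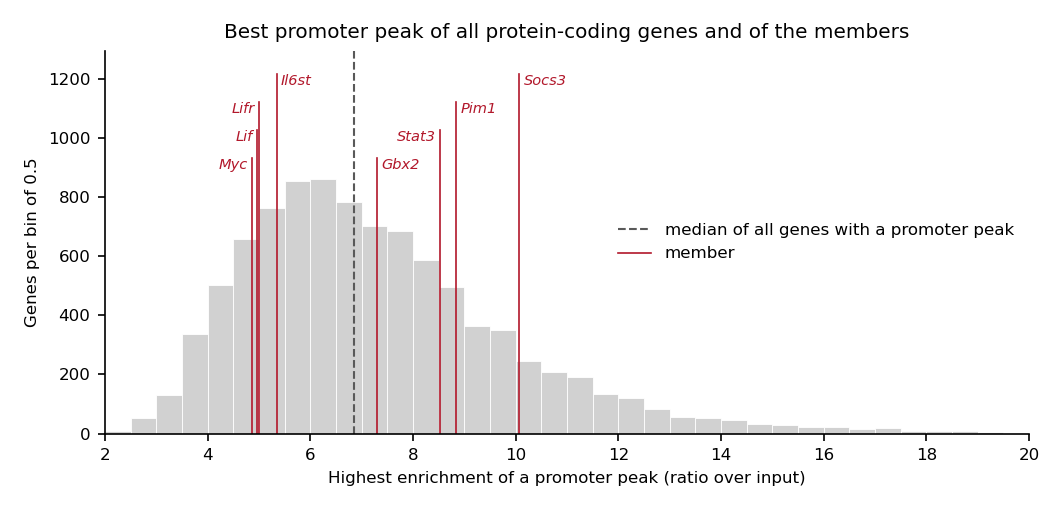
Histogram of the highest enrichment of a promoter peak (ratio over input, bins of 0.5) over 9468 protein-coding genes, of which 34 at 20 or more are beyond the axis; red lines mark the 8 genes with a promoter peak and the dashed line the median of all genes, 6.84. Myc, Lif, Lifr and Il6st sit left of the dashed line, and Gbx2, Stat3, Pim1 and Socs3 right of it.

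Inside the peaks, matches were sought to the Zeb1 motif of the study, which is CNCACCTG, CNTACCTG, TNCACCTG or TNTACCTG, on both strands. At least 1 match was found in 12 of the 20 peaks, or 60%, beside 76.8% of all peaks. On the plus strand of the reference alone the counts were 10 of the 20 peaks and 54.4% of all peaks. In peaks of like length, taken for each of the 20 in turn, the share averaged 79.6%. The matches numbered 29 and fell in 6 of 9 promoter peaks and 6 of 11 distal peaks. A match in the 200 bp at the peak centre was present in 4 of the 20 peaks, or 20%, and in 16.6% of all peaks. The core CACCTG, which is contained in the longer CNCACCTG and TNCACCTG, was present in 15 of the 20 peaks and in 82.1% of all peaks.

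Lif had 6 matches in its peak, where peaks of like length had a median of 2. In their promoter peaks Stat3, Pim1 and Myc had 2 each and Socs3 had 1, and the Gbx2 promoter peak nearest the TSS had none although 96.4% of peaks of like length had a match. The promoter peaks of Lifr and Il6st also had none. Among distal peaks, those of Jak1, Pim1 and Myc had none, as did the Socs3 peak at 37816 bp and the Gbx2 peak in Agap1. For the 6 promoter peaks with a match, the match nearest to the peak centre is shown 5´ to 3´ on the strand that carries it, with the motif in capitals. The match in Stat3 was 4 bp from the peak centre, that in Lif 86 bp and that in Pim1 150 bp, and those in Gbx2, Socs3 and Myc were 544, 909 and 1327 bp away.
Lif, chr11:4267608-4267615, minus strand, intron: atagagaacttTCCACCTGtttgttctgca
Stat3, chr11:100939251-100939258, plus strand, intron 1: cctgcacccccTTCACCTGtctccggggct
Socs3, chr11:117969781-117969788, plus strand, upstream of the curated TSS: gatgcgcgacaTTTACCTGtagacaggtcc
Gbx2, chr1:89926378-89926385, plus strand, downstream of the gene: ggagaaggcatCGCACCTGgcatctcaccc
Pim1, chr17:29491172-29491179, plus strand, coding exon 1: caactccctggCCCACCTGcgcgccgcgcc
Myc, chr15:61985020-61985027, plus strand, upstream of the gene: gaggcagctgtTCCACCTGcggtgactgat

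Among the distal peaks a central match was found at Il6st, 27 bp from the peak centre, and at Gbx2, 84 bp from the centre of the peak 9999 bp upstream. They are shown in the same way because, with those of Lif and Stat3, they were the 4 matches near a peak centre.
Il6st, chr13:112518145-112518152, minus strand, intergenic: gactacagtcaTTCACCTGgcctacacggg
Gbx2, chr1:89941088-89941095, minus strand, intergenic: aacccaggtgcTCTACCTGgaggaggaggg

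Since Stat3 acts on several of these genes, the peaks were also searched for TTCNNNGAA, the palindrome that STAT proteins bind. A match was present in 11 of the 20 peaks, or 55%, beside 42.3% of all peaks and a mean of 44.9% in peaks of like length. None lay in the 200 bp at a peak centre, where 3.65% of all peaks had one. All 5 Socs3 peaks held a match, with 2 in the promoter peak and 3 in the peak at 6366 bp. Both promoter matches of Socs3 were close to the TSS, at 150 bp upstream and at 123 bp downstream in the 5´ UTR, and are shown on the plus strand with the palindrome in capitals. The gene itself lies on the minus strand.
Socs3 upstream, chr11:117969512-117969520: cccccctcccTTCTAAGAAggctggtttc
Socs3 5´ UTR, chr11:117969239-117969247: cgccccccgaTTCCTGGAActgcccggcc

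**Figure D4:**
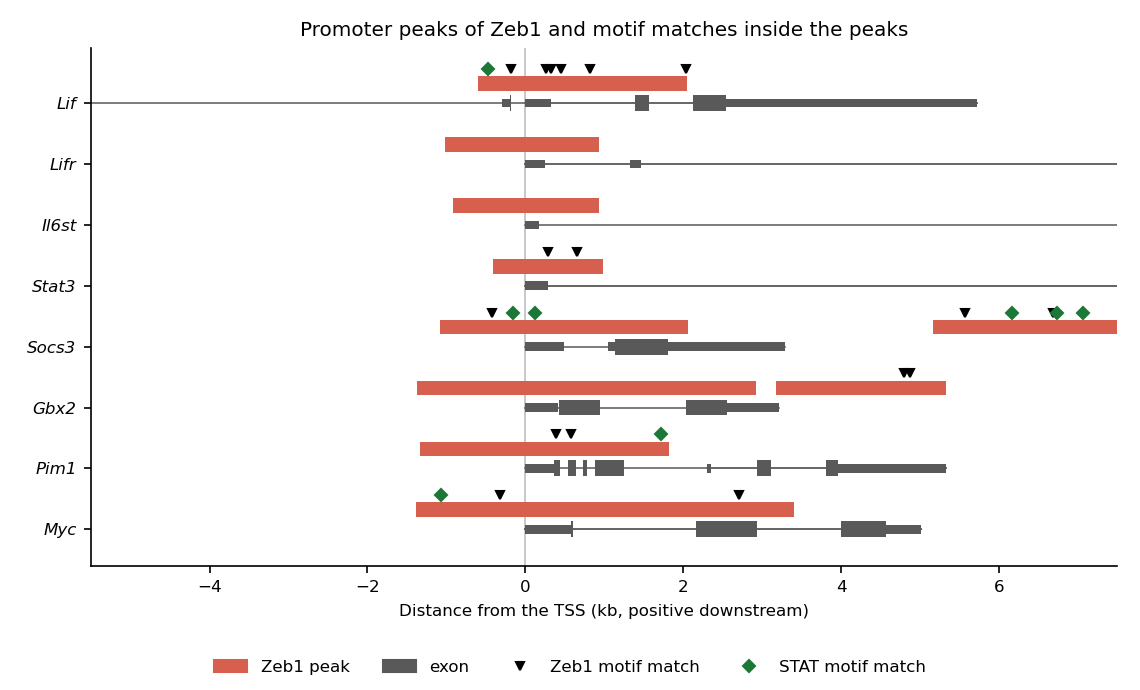
Promoter peaks (red), exons (dark boxes, taller where coding) and motif matches inside the peaks (triangles, Zeb1; diamonds, STAT) by distance from the TSS in kb, positive downstream, for the 8 genes with a promoter peak. Lif carries 6 Zeb1 matches across its peak, Lifr and Il6st carry no mark, and the STAT matches of Socs3 flank its TSS; the peak at the right edge of the Socs3 row is its distal peak at 6366 bp.

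Promoter sequences from RefSeq (GRCm38.p6, 250 bases before to 50 after a TSS) were matched for 9 of the 10 genes, with 11 entries, and without Myc, the downstream TSS of Lif and the upstream TSS of Jak1. Over all 32851 such promoters 16.9% held the Zeb1 motif and 8.30% the STAT palindrome. Among these entries the Zeb1 motif was found at the upstream TSS of Lif, which no peak covered, and the STAT palindrome at Socs3. A peak covered the whole entry at Lifr, Il6st, Stat3, Socs3, Gbx2 and Pim1, and none of these 6 had a Zeb1 match in the 300 bases. At the downstream TSS of Lif, which a peak covered, the peak sequence held a Zeb1 match 178 bp upstream of the TSS. The 250 bases before the TSS are shown, on the plus strand, for Il6st, where a peak was centred, and for Jak2, which had no peak; neither had a match to either motif.
Il6st, chr13:112463820-112464069: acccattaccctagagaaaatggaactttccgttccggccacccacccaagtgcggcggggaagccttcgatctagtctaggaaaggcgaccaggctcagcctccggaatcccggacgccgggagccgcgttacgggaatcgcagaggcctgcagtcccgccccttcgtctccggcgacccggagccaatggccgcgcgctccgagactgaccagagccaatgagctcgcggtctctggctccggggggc
Jak2, chr19:29251553-29251802: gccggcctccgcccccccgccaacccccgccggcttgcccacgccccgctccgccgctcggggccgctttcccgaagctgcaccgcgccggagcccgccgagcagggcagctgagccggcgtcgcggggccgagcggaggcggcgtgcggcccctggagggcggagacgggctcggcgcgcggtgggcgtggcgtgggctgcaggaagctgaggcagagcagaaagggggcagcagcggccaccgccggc

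The other genes of the pathway were counted from lists of 57 genes by role. A peak was assigned to 41 of them, or 71.9%, and a promoter peak to 36, or 63.2%, beside 53.3% and 45.1% of all protein-coding genes. The median of their best promoter enrichment was 7.26, against 6.32 for the 8 genes described above. The value of 6.32 became 7.3 with peaks within 1 kb of the TSS alone, which leaves out Myc. That distance was not applied to the other pathway genes. Of the 16 genes without a row, 4 had a peak assigned to another gene within 5 kb of a TSS. These were Socs4, whose TSS was 5 bp from the centre of a Wdhd1 peak, Pik3ca, at 285 bp from a Zmat3 peak with an enrichment of 14.7, Ptpn6, at 4541 bp from a Grcc10 peak, and Il11ra1, at 4618 bp from a Galt peak.

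Among ligands related to Lif, 3 of 7 had a promoter peak, with enrichments between 4.63 at Clcf1 and 6.15 at Il11, and Il6, Il27, Osm and Cntf had no peak. Lif, at 4.96, was within this range. For receptors related to Lifr and Il6st, 3 of 6 had a promoter peak, from 6.86 at Osmr to 7.27 at Il6ra, all above Lifr and Il6st. Cntfr had a distal peak alone, with an enrichment of 10.1, and Il31ra and Il11ra1 had none. Beside Jak1 and Jak2, the kinase Jak3 had 2 promoter peaks, with an enrichment of 6.9 at 4667 bp from the TSS and 3.61 at 317 bp, and Tyk2 had no peak. Stat5a and Stat5b, transcription factors related to Stat3, had promoter peaks with enrichments of 5.85 and 4.53 and distal peaks with higher ones, 14.95 at 14241 bp for Stat5a and 16.2 at 24720 bp for Stat5b, on 8 and 7 input reads. Stat2, Stat4 and Stat6 had no peak.

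Of 14 inhibitors 9 had a promoter peak, and the enrichment of Socs3, 10.1, was above all of them, the nearest being Socs1 at 9.56. In treatment reads Socs3, with 157, was close to Socs1, with 155, and to Socs2, with 160 and an enrichment of 9.18. The lowest enrichment was that of Pias3, at 4.36. Socs6 had a distal peak alone, and Cish, Socs4, Pias4 and Ptpn6 had no peak. Other signalling genes had a promoter peak in 8 of 9 cases, from 4.9 at Mapk3 to 19.25 at Akt1, without Pik3ca. The Akt1 value rested on 50 treatment and 7 input reads. Among 14 other targets of LIF or Stat3, 10 had a promoter peak, from 4.8 at Klf5 to 12.0 at Tfcp2l1, a range that holds Gbx2, Pim1 and Myc. Nanog, Fos and Bcl3 had distal peaks alone, and Pim2 had none.

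**Figure D5:**
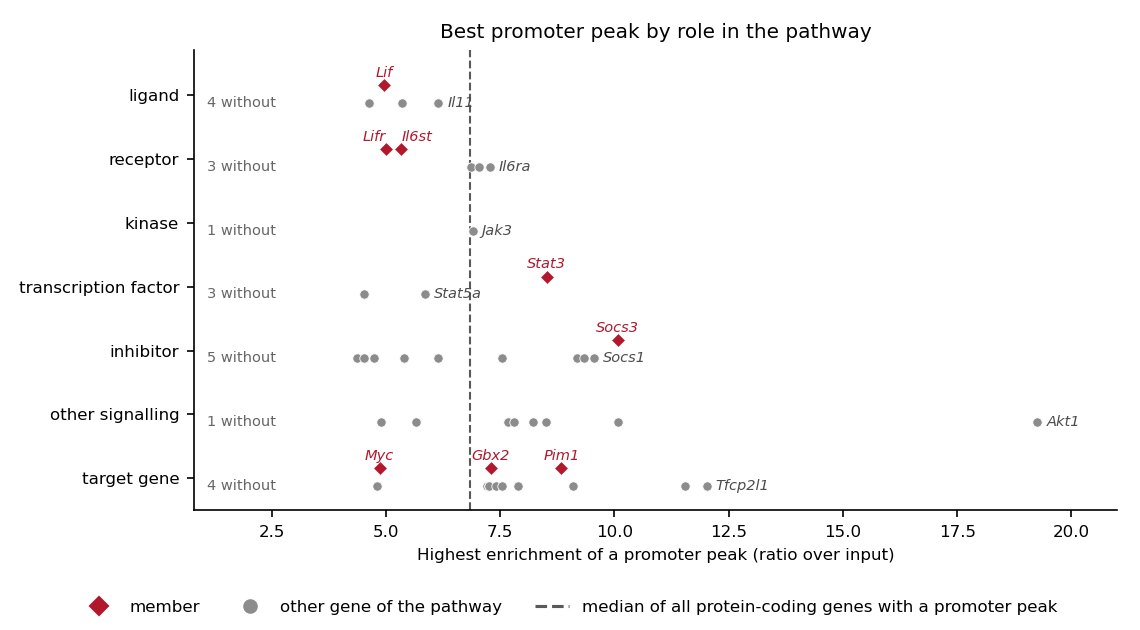
Highest enrichment of a promoter peak (ratio over input) by role, for the genes described above (red diamonds) and the 36 other pathway genes with a promoter peak (grey circles), with the number of other genes without one at the left and the median of all protein-coding genes as a dashed line. Ligand genes all lie left of the dashed line, and Socs3 is the highest inhibitor.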

How the data were processed

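Processing before deposit is given from the methods of the study and the submitters' processing notes. From each sample the authors drew an equal number of Ion Torrent reads, mapped these with STAR (2.4.2a) on mm10, removed duplicates with Picard (1.136), called broad peaks per ChIP library against the input with PeakRanger, unified the peaks of at least 2 of 3 libraries, counted the reads again and annotated the peaks with HOMER (4.7). The deposited read columns are a signal, the mean reads per peak, and the deposited enrichment is a ratio averaged by the authors. Per the file headers positive distances should lie upstream; against the reference they lay downstream, and that sign was used.

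Genes, TSSs and sequence came from curated RefSeq transcripts of GRCm38.p6. The share of peaks with a lower value was computed for each peak, and motif search and distances were tested on simulated data. Python 3.11.15, NumPy 2.4.6, pandas 2.3.3 and pysam 0.24.0 were used. Named were the 10 genes, the genes of the pathway lists with the highest or lowest enrichment or no peak, and genes with a nearer TSS. Pathway genes at another gene's peak, and distal peaks of pathway genes, were added to the text once their values were seen, as were the median of all genes within 1 kb, the divisors of the mean reads and the share of all peaks with a Zeb1 match on the plus strand. The lists leave out 1 gene that is not reported here. The members and lists were chosen with earlier results of these data known.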

Additional observations from a re-analysis of the deposited data

How the results depend on the processing

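Of the 20 alternatives, 15 left a count within 1.5 times its value or the median as it was. With peaks at the RefSeq gene and 5 kb on either side in place of the assigned peaks, the 20 peaks became 10, which leaves out most distal peaks, and with at least 40 treatment reads they became 12. The median enrichment of the best promoter peaks was 7.3 within 1 kb, where 7 genes remained without Myc, and 3.11 as the ratio of mean reads with 1 read added, which is not normalized for mapped reads. Peaks with a Zeb1 motif fell from 12 to 4 in the 200 bp at the centre, a shorter sequence. An enrichment of at least 5 left out the promoter peaks of Lif and Myc, and at least 40 treatment reads those of Lifr and Stat3, so that 6 genes had a promoter peak under each. Without values per library, leaving out a library was not possible, and small differences between peaks cannot be ranked. No paired analysis was possible because the result comes from no test and the list carries no replicate numbers.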
